A study of Mus musculus with 9 samples.

Results

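The genes of cardiac and smooth muscle examined here were *Casz1*, *Nkx2-5*, *Myh6*, *Myh7*, *Tnnt2*, *Actc1*, *Acta1*, *Acta2*, *Tagln* and *Cnn1*. They were taken by symbol from the table of normalised counts, where each had 1 row, and make up 10 of its 29069 genes. Of these 10 genes, 8 had a mean above 5 normalised counts over all samples and were tested, and *Nkx2-5* and *Actc1* did not reach that minimum.

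D3 cells, an established line of mouse embryonic stem cells (mESC) grown here without a feeder layer, were sequenced as total RNA after 24 h in 1 of 3 media. Ground-state medium (GS) was serum-free N2B27 with the MEK inhibitor PD0325901 at 1 μM, the GSK-3 inhibitor CHIR99021 at 3 μM and leukaemia inhibitory factor (LIF) at 20 ng/mL. Differentiation medium (DM), labelled as spontaneous differentiation, was DMEM with 10% fetal bovine serum and had neither the inhibitors nor LIF. NO medium, labelled as mesendodermal, was the same serum medium with 250 μM DETA/NO, which releases nitric oxide. The comparison of DM with GS therefore covers the loss of inhibitors and LIF, the serum and the basal medium together, and only the media of NO vs. DM differ in the donor alone. Each medium had 3 replicates, each from a dish of cells, and the labels do not say that they were separate cultures, so the p-values measure the spread between these samples only. In such bulk RNA a larger share of cells with a transcript and more transcript per cell cannot be told apart.

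Contraction of heart and vessel wall rests on myosin that pulls on filaments of actin, and vertebrates have separate genes for the actins and myosins of heart, smooth and skeletal muscle. *Casz1* and *Nkx2-5* code for transcription factors of the developing heart, *Myh6* and *Myh7* for the alpha and beta myosin heavy chains, *Tnnt2* for cardiac troponin T, and *Actc1*, *Acta1* and *Acta2* for cardiac, skeletal and smooth muscle alpha-actin. *Tagln* (transgelin, SM22) and *Cnn1* (calponin) encode actin-binding proteins of smooth muscle, and both are classical targets of serum response factor (SRF), which binds a DNA element called the CArG box.

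The start regions of the genes were searched for that element, because *Tagln* and *Cnn1* are classical targets of SRF. RefSeq windows on GRCm38.p6, from 250 bases before to 50 bases after each annotated start, were matched for 9 of the 10 genes. These were 12 windows, with 2 each for *Casz1*, *Myh7* and *Tnnt2*. *Tagln* had no window, so its start region was not searched. The CArG box in the form CCWWWWWWGG, with W for A or T, the TATA element TATAAA and the MCAT element CATTCC, which binds TEAD factors, were sought on both strands. Only exact matches were counted, so variants of these elements, such as a CArG box with another letter, were not sought. The CArG box was in 1.63% of all 32851 windows, TATAAA in 13.6% and CATTCC in 14.7%. Among the genes studied a CArG box was in the windows of *Acta1*, 73 bases before the start, and *Actc1*, 47 bases before it. TATAAA was in those of *Acta1*, 7 bases before the annotated start, *Actc1*, 33 bases after it, and *Myh6*, 1 base after it. CATTCC was in 6 of the 12 windows, those of *Acta1*, *Acta2* and *Myh6* and 1 of the 2 windows each of *Casz1*, *Myh7* and *Tnnt2*. The *Casz1* window with the match, at chr4:148889097-148889396, belongs to an annotated start inside the gene. No match overlapped another. The windows of both alpha-actins with a CArG box are printed here beside that of *Cnn1*, the gene with the largest rise in NO medium, whose window held none of the 3 motifs. Capitals mark the motifs in the order in which they occur, and all else is in lower case. A match describes letters only and is neither a bound site nor a cause, and the absence of a match says no more than that the letters are not in this window. The windows lie on GRCm38.p6 at chr8:123894726-123895025 on the minus strand for *Acta1*, chr2:114052826-114053125 on the minus strand for *Actc1* and chr9:22099003-22099302 on the plus strand for *Cnn1*.
Acta1: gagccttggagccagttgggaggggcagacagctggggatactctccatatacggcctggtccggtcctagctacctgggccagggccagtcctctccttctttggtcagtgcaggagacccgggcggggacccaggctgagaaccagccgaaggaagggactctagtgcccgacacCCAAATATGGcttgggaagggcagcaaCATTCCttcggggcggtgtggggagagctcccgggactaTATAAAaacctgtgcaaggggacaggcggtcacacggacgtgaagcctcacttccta
Actc1: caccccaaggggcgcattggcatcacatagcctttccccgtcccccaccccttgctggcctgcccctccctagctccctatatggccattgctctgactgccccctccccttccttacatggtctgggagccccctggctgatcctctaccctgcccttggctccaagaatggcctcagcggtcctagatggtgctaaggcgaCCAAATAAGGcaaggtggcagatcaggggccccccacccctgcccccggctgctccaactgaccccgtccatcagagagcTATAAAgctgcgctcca
Cnn1: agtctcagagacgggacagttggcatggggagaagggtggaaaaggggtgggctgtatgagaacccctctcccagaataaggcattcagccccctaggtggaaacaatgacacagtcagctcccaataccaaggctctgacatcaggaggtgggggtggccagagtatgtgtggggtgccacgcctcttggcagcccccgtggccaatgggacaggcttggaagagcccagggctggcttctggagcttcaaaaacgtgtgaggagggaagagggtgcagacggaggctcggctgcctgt

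Depth was estimated from the spacing of low values at 14310000 to 27060000 reads assigned to genes per sample, so that 1 read was worth 0.7009 to 1.323 normalised counts. Values of a few units thus rest on a few reads. In NO and in DM 1 sample stood apart from the others of its medium. NO replicate 2 exceeded both other NO samples at least 2-fold in 7.94% of the tested genes and DM replicate 3 did so against the other DM samples in 3.38%, whereas this share was 0.925% to 1.71% in the other 7 samples. Markers of undifferentiated ES cells were expressed throughout, and their normalised counts summed to between 114914 and 118637 in GS, 91196 and 100550 in DM and 60001 and 97908 in NO. The lowest sum was that of NO replicate 2, and calls that were lost without this sample are given with and without it.

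A gene was called when it passed an adjusted p under 0.05 in limma and at least a 2-fold change on the log2(normalised count + 1) scale. In DM vs. GS 1 of the 8 tested genes was higher (*Casz1*), beside 2.94% of all 18156 tested genes, and 0 were lower, beside 1.27%. In NO vs. GS 3 of 8 were higher (*Casz1*, *Cnn1* and *Myh6*), against 10.1% of all genes, and 0 lower, against 1.64%. In NO vs. DM 1 of 8 was higher (*Tnnt2*), against 6.78%, and 0 lower, against 1.77%. At an unadjusted p under 0.05 in limma, 3 of the 8 genes were higher in DM vs. GS, beside 11.2% of all tested genes, 3 in NO vs. GS, beside 20.1%, and 2 in NO vs. DM, beside 17.6%. None of the 8 was lower at that p, beside 8.65%, 14.6% and 13.7% of all genes. The median log2 fold change of the 8 genes was 0.02 (DM vs. GS), 0.99 (NO relative to GS) and 0.60 (NO relative to DM), beside medians of 0.00, -0.02 and 0.00 over all genes. *Cnn1* and *Myh6* were called in NO vs. GS and not in DM vs. GS, but the difference between those media did not pass for either gene in NO vs. DM. All 3 comparisons share samples.

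**Figure D1:**
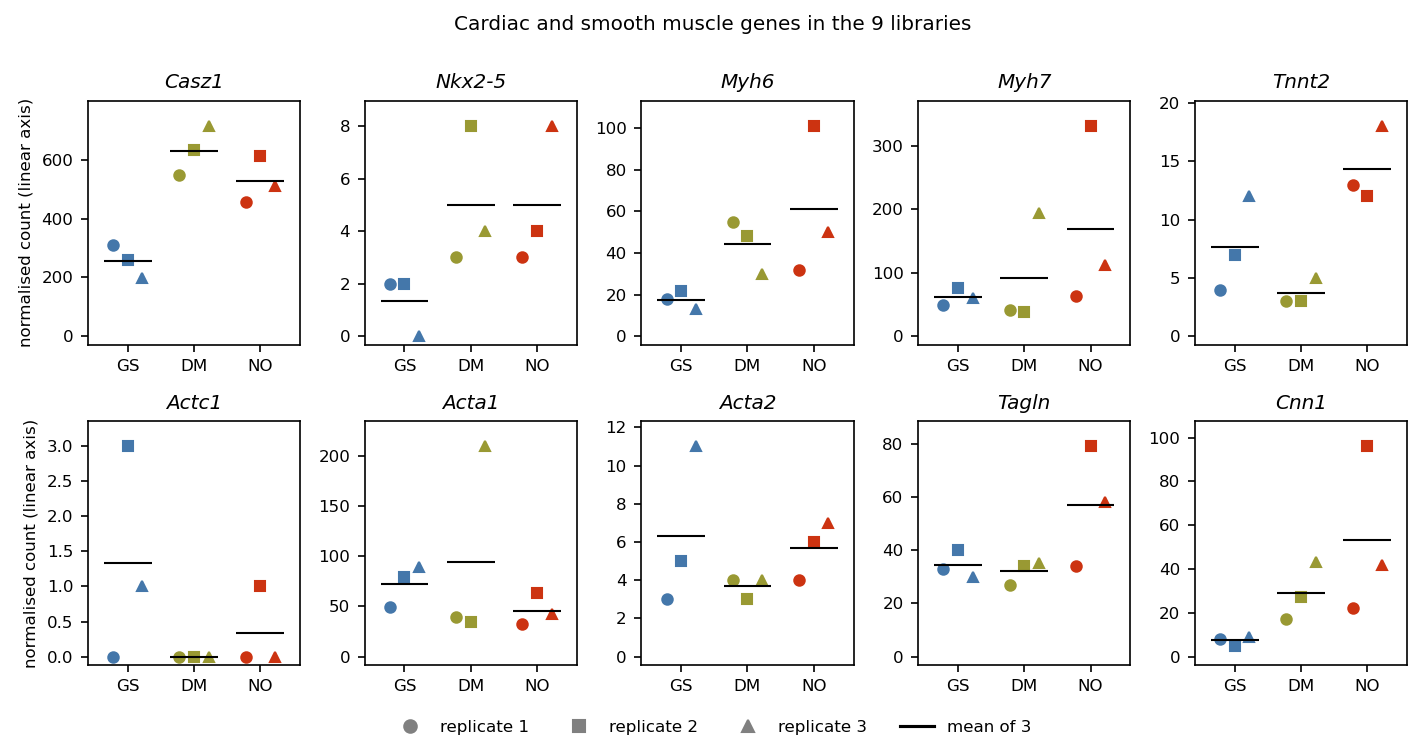
Normalised counts (linear axis, separate scale in each panel) of the 10 genes in GS, DM and NO, with replicates 1, 2 and 3 as circles, squares and triangles and the mean of 3 as a line. *Casz1*, *Myh6* and *Cnn1* lay above every GS sample in all DM and NO samples, and single samples (DM replicate 3, NO replicate 2) set the means of *Acta1* and *Myh7*.

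Among the transcription factors, *Casz1*, a zinc-finger protein, was the gene with the clearest difference. It lies at chr4:148804429-148954889 on the plus strand of GRCm38. Its normalised counts were 309, 258 and 198 in GS, 547, 632 and 714 in DM, and 456, 613 and 510 in NO for replicates 1 to 3. All serum samples exceeded all GS samples, and the DM and NO samples overlapped. On the log2(normalised count + 1) scale *Casz1* rose by 1.32 ± 0.19 in DM vs. GS (SE, 95% confidence interval 0.90 to 1.74, adjusted p = 0.00183, limma) and by 1.06 ± 0.19 in NO vs. GS (0.63 to 1.48, adjusted p = 0.00367, limma). Its log2 fold change in NO vs. DM was -0.26, with an interval of -0.69 to 0.16 (adjusted p = 0.38, limma). Without GS replicate 3, without NO replicate 2 or with quantile normalisation the change in NO vs. GS kept its adjusted p under 0.05 but fell under the 2-fold minimum (0.94 on the log2 scale without NO replicate 2).

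*Nkx2-5*, the homeobox factor that marks cardiac progenitors, was near the limit of detection. It lies at chr17:26838664-26845009 on the minus strand. Its normalised counts were 2, 2 and 0 in GS, 3, 8 and 4 in DM, and 3, 4 and 8 in NO. Every serum sample was above every GS sample, and DM and NO had the same 3 values in another order. These values rest on 0 to 11 reads and the gene was under the minimum mean. In the fit without a minimum its log2 fold change was 1.44 ± 0.60 in both DM vs. GS (adjusted p = 0.291, limma) and NO vs. GS (adjusted p = 0.159, limma).

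The myosin heavy chain genes lie side by side on the minus strand of chromosome 14, *Myh6* at chr14:54941921-54966927 and *Myh7* at chr14:54970684-54994626. The normalised counts of *Myh6* were 18, 22 and 13 in GS, 55, 48 and 30 in DM, and 32, 101 and 50 in NO. GS samples lay below all others, while DM and NO overlapped. *Myh6* rose in NO vs. GS by 1.60 ± 0.42 on the log2 scale (0.68 to 2.52, adjusted p = 0.0208, limma). In DM vs. GS its log2 fold change of 1.27 ± 0.42 (0.34 to 2.19) did not pass, with an adjusted p of 0.107 (limma). Without NO replicate 2, its highest sample, the log2 fold change in NO vs. GS was 1.17 with an adjusted p of 0.0651 (limma), and over all 19 alternatives the adjusted p ranged from 0.00477 to 0.0834 and was above 0.05 in 5.

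*Myh7*, which encodes the slower beta chain, did not pass in any comparison. Its normalised counts were 49, 76 and 61 in GS, 42, 38 and 194 in DM, and 63, 331 and 112 in NO. The high DM and NO means came from DM replicate 3 and NO replicate 2, and the 3 media overlapped. The log2 fold change was 0.15 ± 0.64 in DM vs. GS, with an interval of -1.25 to 1.55 (adjusted p = 0.928, limma), and 1.11 ± 0.64 in NO vs. GS, with an interval of -0.29 to 2.51 (adjusted p = 0.241, limma). It was -0.60 in DM vs. GS without DM replicate 3, and 0.46 in NO vs. GS without NO replicate 2.

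The balance of both myosins was not the same in all samples of a medium. *Myh6* made up 26.9%, 22.4% and 17.6% of the summed normalised counts of *Myh6* and *Myh7* in GS replicates 1 to 3. The share was 56.7%, 55.8% and 13.4% in DM, and 33.7%, 23.4% and 30.9% in NO. In DM replicates 1 and 2 *Myh6* thus held the larger part, and in DM replicate 3 it held the lowest part of all 9 samples. These shares are not corrected for length, and reads that matched both genes had been left out: 33.2% of the 30-base windows of the longest *Myh6* transcript and 39.3% of those of *Myh7* also occurred in another gene, mainly in each other, and 19.1% and 24.3% of 60-base windows did so. A part of both transcripts was therefore not counted.

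*Tnnt2*, the troponin subunit that anchors the calcium switch to the thin filament, was the only one of the 8 tested genes that passed in NO vs. DM. It lies at chr1:135836354-135852260 on the plus strand. Normalised counts were 4, 7 and 12 in GS, 3, 3 and 5 in DM, and 13, 12 and 18 in NO. All NO samples were above all DM samples, whereas the highest GS sample equalled the lowest NO sample. *Tnnt2* was higher in NO than in DM by 1.72 ± 0.49 on the log2 scale (0.66 to 2.79, adjusted p = 0.0374, limma). Its log2 fold change was -0.81 ± 0.49 in DM vs. GS (adjusted p = 0.393, limma) and 0.91 ± 0.49 in NO vs. GS (adjusted p = 0.207, limma). The direction in NO vs. DM held in all 20 alternatives, but in 10 of them, which include fits without 1 sample, quantile normalisation and the fit of the 6 DM and NO samples alone, the adjusted p was above 0.05, with a range of 0.0284 to 0.116. It was 1.83 on the log2 scale without NO replicate 2 (adjusted p = 0.0694, limma).

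Neither striated muscle actin was called. *Actc1*, the main alpha-actin of the heart, had 0, 3 and 1 normalised counts in GS, 0 in all DM samples, and 0, 1 and 0 in NO. A count of 0 allows up to 3 reads, which are 2.57, 2.10 and 3.19 normalised counts in DM replicates 1, 2 and 3, for counting error only. *Actc1* was thus at the limit of detection in every medium, and no fold change is given. The gene lies at chr2:114047282-114053548 on the minus strand.

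*Acta1*, the skeletal alpha-actin that the developing heart also expresses, was detected in all samples. It lies at chr8:123891769-123894751 on the minus strand and had 49, 79 and 89 normalised counts (GS), 39, 34 and 209 (DM) and 32, 63 and 42 (NO). DM replicate 3 was far above all other samples, and the media overlapped. The log2 fold change was -0.10 ± 0.58 in DM vs. GS (-1.36 to 1.16, adjusted p = 0.952, limma) and -0.66 ± 0.58 in NO vs. GS (-1.92 to 0.60, adjusted p = 0.448, limma). Without DM replicate 3 it was -0.93 in DM vs. GS (adjusted p = 0.235, limma), and in NO vs. DM it went from -0.56 to 0.26.

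Of the smooth muscle genes, *Cnn1* had the largest change of all 10 genes that were examined. It lies at chr9:22099216-22109630 on the plus strand, and none of its 30-base windows occurred in another gene. The normalised counts were 8, 5 and 9 in GS, 17, 27 and 43 in DM, and 22, 96 and 42 in NO. All serum samples lay above all GS samples, while NO and DM overlapped, with NO replicate 2 above all DM samples. *Cnn1* rose in NO vs. GS by 2.49 ± 0.52 on the log2 scale (1.35 to 3.64, adjusted p = 0.00745, limma), a 5.62-fold change on that scale. Without NO replicate 2 it still passed, at 1.95 on the log2 scale (adjusted p = 0.0198, limma), and the adjusted p stayed at or below 0.0339 in all 19 alternatives. In DM vs. GS the log2 fold change of 1.79 ± 0.52 (0.64 to 2.93) did not pass (adjusted p = 0.0678, limma), but it did with only the 6 samples compared or without NO replicate 1 or 2, samples outside that comparison that enter the shared estimate of the spread. The interval of NO vs. DM, -0.44 to 1.85, was wide (log2 fold change 0.70, adjusted p = 0.387, limma).

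*Tagln*, at chr9:45929619-45936058 on the minus strand, changed less. Its normalised counts were 33, 40 and 30 in GS, 27, 34 and 35 in DM, and 34, 79 and 58 in NO. NO replicates 2 and 3 lay above the 6 samples without the donor, and NO replicate 1 lay among them. The log2 fold change was 0.64 ± 0.33 in NO vs. GS (-0.08 to 1.37, adjusted p = 0.188, limma) and 0.74 ± 0.33 in NO vs. DM (0.02 to 1.46, adjusted p = 0.149, limma). Without NO replicate 1 both passed the adjusted p, at 0.97 (0.0377) and 1.07 (0.0286). In the GENCODE M21 annotation 62.4% of the *Tagln* exon bases overlap Gm48529, a gene on the other strand, and use of the strand in counting was not stated, so the values of *Tagln* are uncertain.

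*Acta2*, the alpha-actin of smooth muscle, was barely detected. It lies at chr19:34241090-34255590 on the minus strand. Normalised counts were 3, 5 and 11 in GS, 4, 3 and 4 in DM, and 4, 6 and 7 in NO. The media overlapped in every comparison. The log2 fold change was -0.51 ± 0.54 for DM vs. GS and -0.01 ± 0.54 for NO vs. GS, with an interval of -1.19 to 1.17 in the latter (adjusted p = 0.661 and 0.99, limma).

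**Figure D2:**
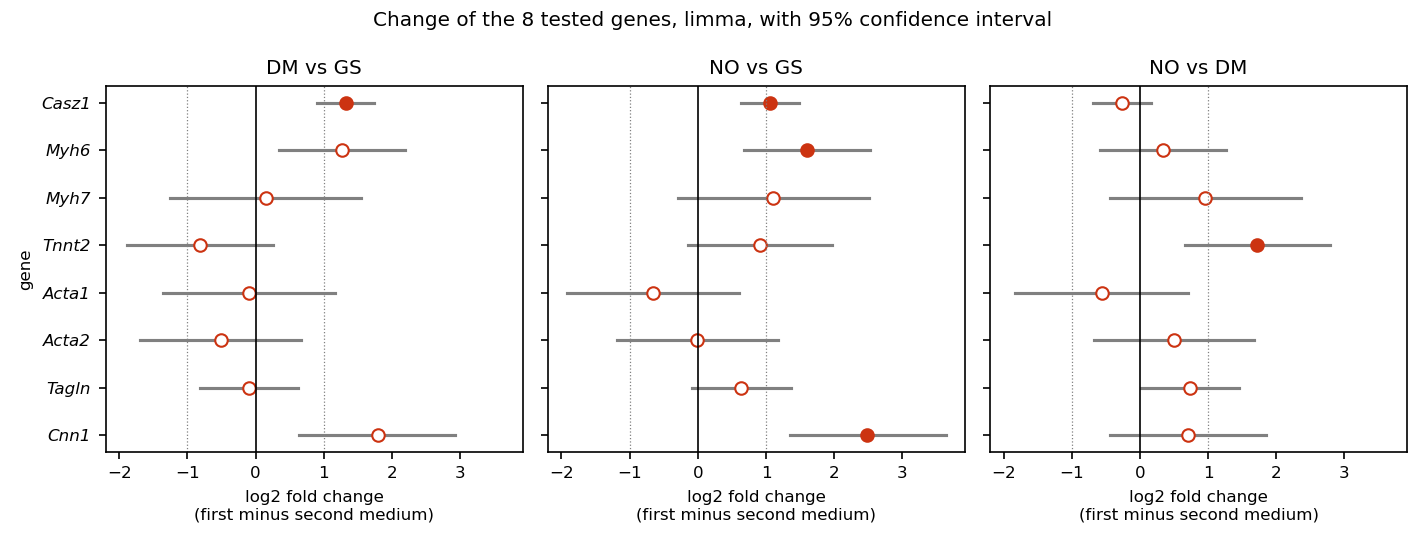
Log2 fold change (log2 of normalised count + 1, first medium minus second) of the 8 tested genes with 95% confidence intervals from limma. Filled points passed an adjusted p under 0.05 and a 2-fold change (dotted lines at a log2 fold change of 1 in each direction). *Casz1* has the narrowest interval, and those of *Myh7* and *Acta1* span 0 widely.

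Divided by exon length, 8 of the 10 genes lay below the median of protein-coding genes in every medium, all but *Acta1* and *Casz1*. The median of 18773 protein-coding genes was 36.63 normalised counts per kb of exon in GS, 38.42 in DM and 44.77 in NO. In GS *Acta1* came first of the 10 genes with 47.1 ± 13.6 per kb (SD, n = 3), followed by *Casz1* with 20.9 ± 4.55 and *Tagln* with 17.3 ± 2.58. *Casz1* and *Tagln* overlapped in their samples, as did *Acta2*, *Cnn1* and *Myh6* at 2.88, 2.68 and 2.63 per kb, and *Tnnt2*, *Actc1* and *Nkx2-5* at 0.989, 0.824 and 0.776. *Myh7*, at 7.20 ± 1.57 per kb, was apart from both neighbours.

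In DM *Acta1* (61.2 ± 64.9 per kb) and *Casz1* (51.6 ± 6.83) were first and overlapped, and *Casz1* stood above 53.8% of protein-coding genes. *Tagln*, *Myh7*, *Cnn1* and *Myh6* followed between 16.1 and 6.59 per kb, each overlapping the next. *Nkx2-5* overlapped both neighbours. *Acta2*, *Tnnt2* and *Actc1* closed the order, without overlap between neighbours. In NO *Casz1* was first with 43.1 ± 6.53 per kb and overlapped *Acta1* at 29.7 ± 10.3, and in the first 6 genes of the order, which ended with *Myh6* at 9.07 ± 5.32, each overlapped its neighbours. The share of protein-coding genes with a lower level than *Cnn1* came to 26.9% in GS, 37.0% in DM and 39.7% in NO, and that for *Myh6* was 26.7%, 33.1% and 32.5%.

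**Figure D3:**
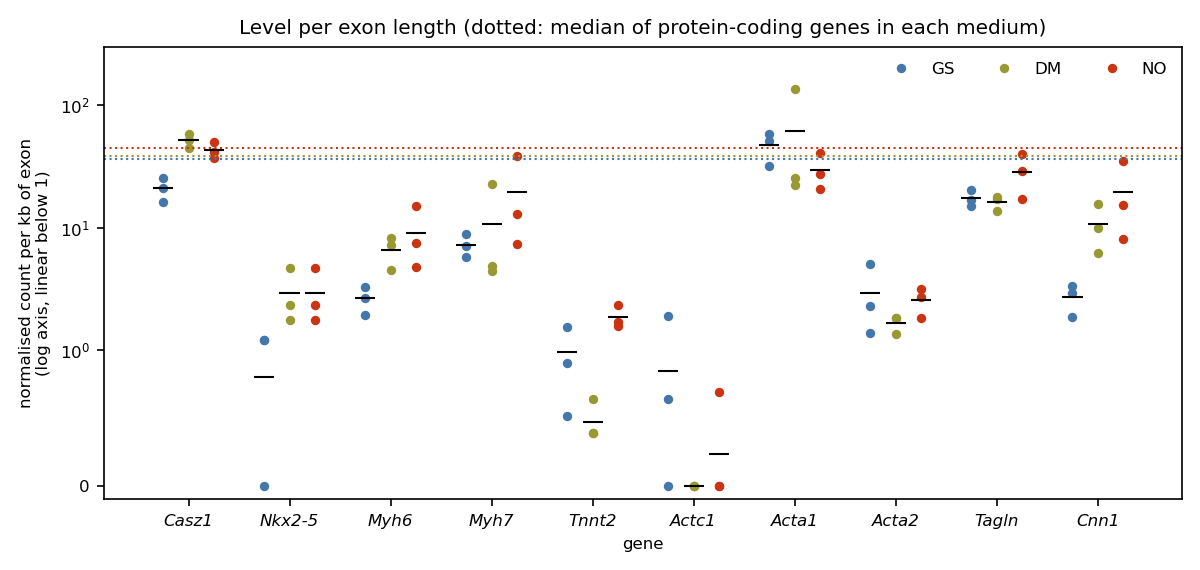
Normalised counts per kb of exon (log axis, linear below 1) of the 10 genes in each sample of GS, DM and NO, with the mean of 3 as a line and the median of 18773 protein-coding genes in each medium as a dotted line. *Acta1* and *Casz1* lie near the median, and *Tnnt2*, *Actc1*, *Nkx2-5* and *Acta2* lie far below it.

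The samples that stood apart were often the highest for these genes. DM replicate 3 was at least 2-fold above both other DM samples in 2 of the 8 tested genes (*Acta1* and *Myh7*), beside 3.38% of all tested genes, and NO replicate 2 in 3 of 8 (*Cnn1*, *Myh6* and *Myh7*), beside 7.94%. NO replicate 2 was also the highest NO sample in 6 of 8, beside 41.8% of all genes. What sets this sample apart was not tested. The plot of changes with 1 sample left out shows how far each log2 fold change moved. *Casz1* in DM vs. GS stayed between 1.15 and 1.47 and *Cnn1* in NO vs. GS between 1.95 and 2.99, whereas *Acta1* in NO vs. DM ranged from -1.03 to 0.26 and *Myh7* in NO vs. DM from 0.30 to 1.71.

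**Figure D4:**
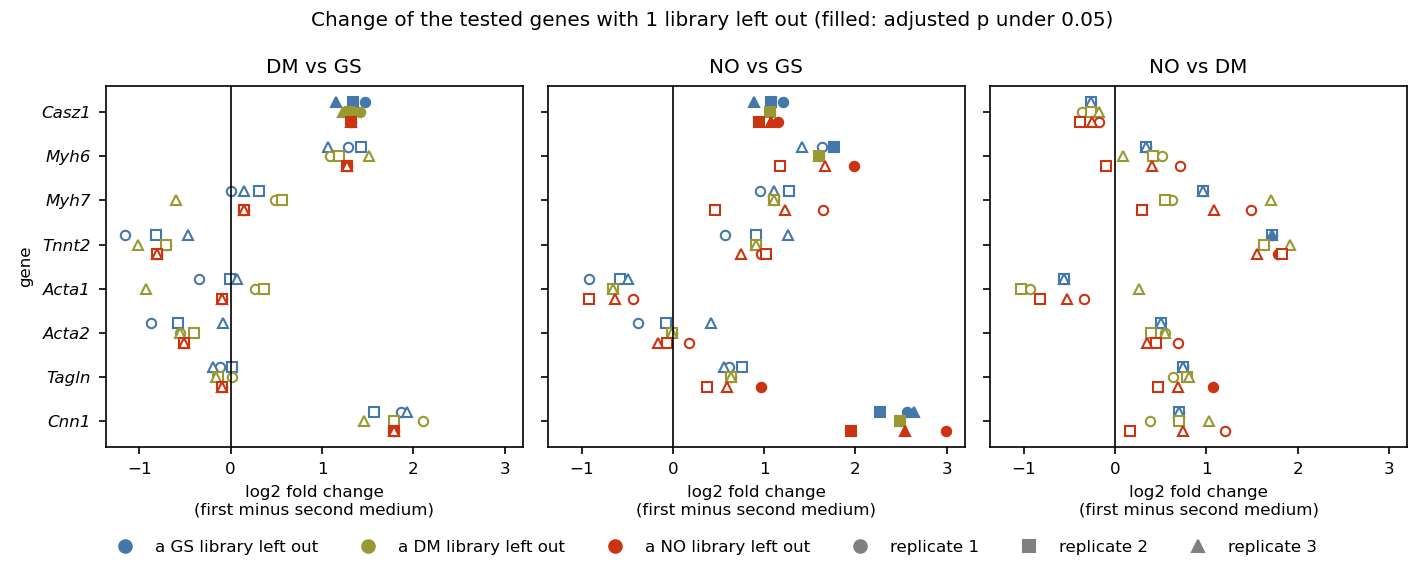
Log2 fold change (first medium minus second) of the 8 tested genes in 9 limma fits, each without 1 sample; the colour is the medium of the sample left out, the shape its replicate number, and filled symbols have an adjusted p under 0.05. *Casz1* against GS and *Cnn1* in NO vs. GS are filled throughout, and *Tnnt2* in NO vs. DM is filled only in part of the fits.

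To place these genes among others of the same function, 74 genes in 6 lists were examined, of which 62 were tested. In DM vs. GS 5 were higher (8.06%, beside 2.94% of all tested genes) and 1 lower (1.61%, beside 1.27%). In NO vs. GS 13 were higher (21.0%, beside 10.1%) and 2 lower (3.23%, beside 1.64%), and in NO vs. DM 10 were higher (16.1%, beside 6.78%) and 2 lower (3.23%, beside 1.77%). These counts are a description, since the lists were chosen with earlier results of these data known. In 5 of the 62 genes (*Cacna1c*, *Tbx2*, *Mesp1*, *Irx4* and *Fhl2*, named after their values were seen) the mean of the 6 GS and DM samples was under the minimum, so that they were tested only through their NO samples, and *Mesp1* was the only one of them that was called. In both comparisons with NO the share of higher genes was highest in the smooth muscle list, which holds partners of *Cnn1* and *Tagln* in the contractile apparatus.

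Of 8 tested smooth muscle genes 5 were higher in NO than in GS, beside 10.1% of all tested genes. In NO vs. DM 5 were higher, beside 6.78%. The medians of the list in these comparisons were 1.20 and 1.43 on the log2 scale. Normalised counts of *Cald1* (caldesmon, which like calponin binds actin and tropomyosin) were 1229, 1161 and 1392 in GS, 993, 1043 and 799 in DM, and 1900, 5278 and 2858 in NO. It rose by 1.70 ± 0.29 in NO vs. DM (adjusted p = 0.00498, limma). For *Myh11*, the smooth muscle myosin heavy chain, they were 20, 16 and 19 in GS, 19, 27 and 18 in DM, and 41, 201 and 71 in NO. All NO samples were above the other 6, with NO replicate 2 highest, and the log2 fold change in NO vs. DM was 1.95 ± 0.48 (adjusted p = 0.0226, limma).

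*Csrp1*, a LIM protein of smooth muscle, also rose in NO vs. DM, by 1.16 ± 0.26 (adjusted p = 0.0162, limma). Its adjusted p was above 0.05 in 4 of 21 alternatives. *Lmod1* (leiomodin, an actin nucleator), with normalised counts of 4, 4 and 1 in GS, 9, 16 and 4 in DM, and 22, 91 and 35 in NO, passed in NO vs. GS (adjusted p = 0.00344, limma) and in NO vs. DM (adjusted p = 0.0434, limma). The fifth gene that passed in NO vs. DM was *Mylk*, the myosin light chain kinase, at 2.04 ± 0.54 (adjusted p = 0.0298, limma). It was named after its values were seen, and its call was lost in 8 of 20 alternatives (adjusted p up to 0.106, limma). *Synpo2* (log2 fold change 2.03 ± 0.45) and *Tpm2* (1.02 ± 0.23), a tropomyosin, completed the 5 genes higher in NO than in GS (adjusted p = 0.00956 and 0.00965, limma). *Tpm2* was the only 1 of the 8 called in DM vs. GS, at 1.09 ± 0.23 (adjusted p = 0.0143, limma), where 2.94% of all tested genes were higher. Its adjusted p there was above 0.05 in 3 of 20 alternatives. The call of *Lmod1* in NO vs. DM was lost in 13 of 20 alternatives and that of *Myh11* in 5 of 20 (adjusted p up to 0.0709, limma). For *Myh11* these included the fits without DM replicate 1 or 3 or NO replicate 3. Of the 5 genes only *Cald1* and *Myh11* were still called in NO vs. DM without NO replicate 2, at 1.31 and 1.32 on the log2 scale (adjusted p = 0.00229 and 0.0483, limma). *Mylk* (1.55, adjusted p = 0.106, limma) and *Lmod1* (1.60, adjusted p = 0.163, limma) then missed the adjusted p, and *Csrp1* (0.81) the 2-fold minimum. In NO vs. GS *Cald1* was called at 1.28 ± 0.29 with all samples (adjusted p = 0.00978, limma). Without NO replicate 2 *Cald1* (0.89) and *Tpm2* (0.82) fell under the 2-fold minimum in that comparison, and *Lmod1*, *Synpo2* and *Myh11* were still called. *Actg2*, *Myl9* and *Kcnmb1* were under the minimum mean, with at most 12 normalised counts in any sample, and were named after their values were seen.

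The sarcomere list, to which *Myh6*, *Myh7* and *Tnnt2* are related, moved in both directions. In DM vs. GS *Mybpc3*, a myosin-binding protein, rose by 1.08 ± 0.23 (adjusted p = 0.0169, limma) and *Nebl*, a thin filament protein, by 2.08 ± 0.46 (adjusted p = 0.0184, limma). The adjusted p was above 0.05 in 6 of 20 alternatives for *Mybpc3* (up to 0.0811, limma) and in 4 of 19 for *Nebl* (up to 0.0791, limma). *Tnni1*, the slow skeletal troponin I that the embryonic heart also uses, fell by 1.96 on the log2 scale (adjusted p = 0.00656, limma). In NO vs. DM *Des* (desmin) rose by 1.29 ± 0.30 and *Ldb3*, a Z-disc protein, by 1.56 ± 0.33 (adjusted p = 0.0185 and 0.0121, limma). *Myl7*, the atrial myosin light chain, fell by 1.45 on the log2 scale (adjusted p = 0.00437, limma). *Tnni3* (cardiac troponin I, -0.99 ± 0.25) and *Ttn* (titin, -0.73 ± 0.15), named after their values were seen, missed only the 2-fold minimum in NO vs. DM (adjusted p = 0.0248 and 0.0123, limma). The same held in NO vs. GS (adjusted p = 0.0171 and 0.0101, limma), and there also for *Mybpc3* in the other direction (0.99 ± 0.23, adjusted p = 0.0127, limma). The change of *Des* in NO vs. DM was 0.96 without NO replicate 2, under the 2-fold minimum, and its adjusted p was above 0.05 in 4 of 21 alternatives. Desmin is also made by smooth and skeletal muscle. Of the 17 tested genes 3 were higher and 2 lower in NO vs. GS, beside 10.1% and 1.64% of all tested genes. *Des* was at 2.33 ± 0.30 (adjusted p = 0.000814, limma) and *Myl7* at -1.73 ± 0.24 (adjusted p = 0.00103, limma). The median of the list was 0.29 in that comparison.

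Among 13 tested cardiac transcription factors, which act beside *Nkx2-5* and *Casz1*, *Gata6* had normalised counts of 15, 5 and 11 in GS, 7, 6 and 11 in DM, and 20, 234 and 90 in NO. All NO samples were above the others, over a wide range, and the log2 fold change in NO vs. DM was 3.13 ± 0.72 (adjusted p = 0.0181, limma). Without NO replicate 2 it was 2.32 (adjusted p = 0.0498, limma), but in 4 of 20 alternatives the adjusted p was above 0.05 (up to 0.0718, limma). In NO vs. GS the log2 fold change of *Gata6* was 2.87 ± 0.72 (adjusted p = 0.0175, limma). This call was lost in 5 of 19 alternatives, among them that without NO replicate 2 (log2 fold change 2.06, adjusted p = 0.0539, limma). *Hand1* had normalised counts of 3 to 4 in GS, 6 to 8 in DM and 11, 111 and 33 in NO (adjusted p = 0.0102 against GS and 0.0452 against DM, limma), and the call against DM was lost in 13 of 20 alternatives, among them that without NO replicate 2 (log2 fold change 1.41, adjusted p = 0.152, limma). *Mesp1*, a factor of early cardiac mesoderm, had normalised counts of 1, 0 and 0 in GS, 3, 0 and 7 in DM, and 4, 23 and 9 in NO. It reached the minimum mean only through its NO samples. Its log2 fold change in NO vs. GS was 3.08 ± 0.86 (adjusted p = 0.0272, limma). This call was lost in 5 of 19 alternatives, among them that without NO replicate 2 (log2 fold change 2.49, adjusted p = 0.105, limma). *Gata6* and *Hand1* also act outside the heart, in endoderm and trophoblast respectively.

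*Hopx*, a homeodomain protein without DNA binding, went the other way. The normalised counts were 18, 9 and 12 in GS, 61, 49 and 63 in DM, and 24, 9 and 21 in NO. The DM samples were thus above all others, with a log2 fold change of 2.11 ± 0.41 against GS and -1.72 ± 0.41 for NO vs. DM (adjusted p = 0.00942 and 0.0199, limma). For NO vs. DM the adjusted p was above 0.05 in 3 of 20 alternatives, each without 1 DM sample. *Smyd1*, a muscle methyltransferase, rose in DM vs. GS by 1.06 ± 0.22 (adjusted p = 0.0132, limma), and its adjusted p was above 0.05 in 4 of 20 alternatives. Of 8 tested genes of calcium handling and natriuretic peptides 1 was called, in NO vs. DM, where 6.78% of all tested genes were higher. This was *Nppb*, which codes for B-type natriuretic peptide, with 12, 4 and 9 normalised counts in DM and 18, 92 and 37 in NO. Its log2 fold change was 2.23 ± 0.56 (adjusted p = 0.024, limma). This call was lost in 7 of 20 alternatives, with an adjusted p of up to 0.0847 (limma). Among them were the fit without NO replicate 2 (log2 fold change 1.63, adjusted p = 0.0779, limma) and that of the 6 DM and NO samples with the replicate number as a block (adjusted p = 0.0523, limma). *Atp2a2* and *Ryr2*, the most abundant of that list, were called in none of the comparisons, with log2 fold changes of -0.20 ± 0.17 and 0.50 ± 0.12 in NO vs. GS, of which the latter had an adjusted p of 0.0149 (limma) but was under the 2-fold minimum.

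The transcript of *Srf*, the factor of the CArG box, did not pass in any comparison. Its level was 1123, 946 and 729 normalised counts per GS sample, 1002, 1094 and 1479 in DM, and 798, 897 and 976 in NO, a log2 fold change of 0.35 ± 0.19 in DM vs. GS (adjusted p = 0.334, limma). *Mkl1*, a cofactor of SRF (also called *Mrtfa*), had log2 fold changes of 0.05 ± 0.16 for DM vs. GS and 0.02 ± 0.16 for NO vs. GS. *Myocd* (myocardin), the cofactor restricted to heart and smooth muscle, was named after its values were seen: it had 0 normalised counts in all GS samples, 1, 0 and 0 in DM, and 4, 9 and 7 in NO, and was under the minimum mean.

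General actin genes that SRF also controls were examined as a contrast to the muscle genes. In NO vs. GS 2 of 13 were called higher, beside 10.1% of all tested genes, and 0 lower, beside 1.64%. None was called in the other comparisons, beside 2.94% higher and 1.27% lower in DM vs. GS and 6.78% and 1.77% in NO vs. DM. At an unadjusted p under 0.05 in limma, 2 of 13 were higher and 1 lower in DM vs. GS, beside 11.2% and 8.65% of all tested genes. The numbers were 2 and 1 in NO vs. GS, beside 20.1% and 14.6%, and 3 and 3 in NO vs. DM, beside 17.6% and 13.7%. *Tagln2*, a paralogue of *Tagln* expressed in many cells, rose by 1.10 ± 0.19 and *Zyx* (zyxin) by 1.21 ± 0.26 in NO vs. GS (adjusted p = 0.00282 and 0.00844, limma). *Actb*, the cytoplasmic beta-actin, had a log2 fold change of 0.21 ± 0.20 for DM vs. GS and -0.41 ± 0.20 for NO vs. GS. *Flna* (filamin A) had 0.08 ± 0.13 and -0.05 ± 0.13.

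**Figure D5:**
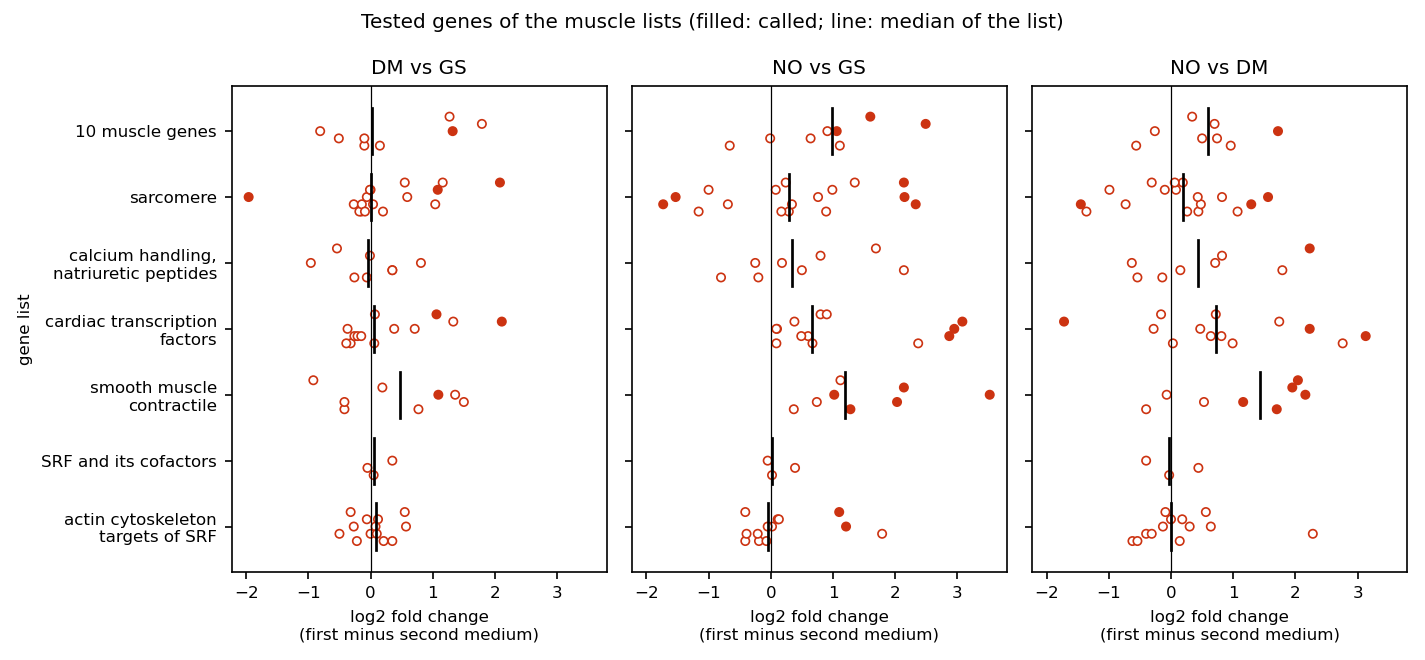
Log2 fold change (first medium minus second, limma) of the tested genes in each list, with the 10 muscle genes (8 tested) in the first line, filled points for called genes and a bar at the median of each list. The smooth muscle list lies highest in both comparisons with NO, with medians of 1.20 and 1.43, and the cytoskeletal list is centred near 0.

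Markers of other cells moved with these genes in part. Of the 10 ES cell markers only *Tfcp2l1* was called, and it fell by 1.47 (DM) and by 1.25 (NO) relative to GS on the log2 scale (adjusted p = 0.000714 and 0.0013, limma). *Zfp42*, with the second highest mean, did not pass. *Nanog* in DM vs. GS (-0.80, adjusted p = 0.0311, limma) and *Pou5f1* in NO vs. DM (-0.95, adjusted p = 0.0349, limma) missed only the 2-fold minimum. The median of the 10 was -0.09 for DM vs. GS and -0.34 for NO vs. GS. *Tfcp2l1* averaged 31053 normalised counts in GS and 11299 in DM, so it weighs heavily on the summed marker level. Of 11 skeletal muscle markers 6 were tested, and their summed level, mostly of *Mylpf*, in normalised counts ran from 2274 to 3071 in GS, 1673 to 1968 in DM and 1570 to 3158 in NO. *Myh3*, the embryonic myosin heavy chain, rose in DM vs. GS by 1.34 ± 0.28 (adjusted p = 0.015, limma) and fell by 1.26 in NO vs. DM (adjusted p = 0.0159, limma). The adjusted p was above 0.05 in 6 of 20 alternatives for the rise and 2 of 21 for the fall. *Myog* (myogenin) rose to 12, 33 and 18 normalised counts in NO, from 5 to 9 in GS and 4 to 6 in DM (adjusted p = 0.0449 and 0.0369, limma), calls that were lost in 12 of 19 and 13 of 20 alternatives. Without NO replicate 2 the adjusted p was 0.16 and 0.14 (limma), and with the replicate number as a block 0.0634 and 0.0528 (limma). The defining factors *Myod1*, *Myf5* and *Myf6*, named after their values were seen, had at most 5 normalised counts in any sample.

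Of 10 fibroblast markers 6 were tested, and their summed level in normalised counts ran from 355 to 536 in GS, 440 to 477 in DM and 418 to 576 in NO. *Pdgfrb* had the highest mean, and its normalised counts were 378, 219 and 266 (GS), 189, 163 and 216 (DM) and 175, 110 and 152 (NO). All NO samples were below all GS samples, and its log2 fold change of -0.97 ± 0.24 in NO vs. GS passed the adjusted p (0.0169, limma) but not the 2-fold minimum. *Thy1* rose by 1.70 ± 0.18 in DM and 1.47 ± 0.18 in NO, both relative to GS (adjusted p = 0.000303 and 0.000676, limma). *Col1a1* rose to 39, 88 and 39 normalised counts in NO, from 21, 13 and 20 (GS) and 13, 18 and 20 (DM) (adjusted p = 0.0207 and 0.0239, limma). These calls were lost in 4 of 19 and 4 of 20 alternatives (adjusted p up to 0.0827 and 0.0846, limma), and without NO replicate 2 the log2 fold changes were 1.10 and 1.17 (adjusted p = 0.0697 and 0.0784, limma). *Dcn*, *Lum*, *Postn* and *Fap*, named after their values were seen, had at most 6 normalised counts. The part of such cells in the changes of the muscle genes was not tested.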

How the data were processed

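Total RNA of mESC in GS, DM and NO medium (3 replicates each, as given by the labels) was sequenced by the authors on an Ion Torrent Proton after ribosomal depletion. The reads were trimmed with Reaper, aligned to GRCm38 with STAR 2.4.0a and counted over exons with featureCounts 1.4.5-p1, without reads that overlapped several genes or aligned to several places. The deposited values are a score per gene, namely DESeq2-normalised counts that the authors rounded to whole numbers, and no count model was fitted to them. The column with the sum over the samples (1 column) was not used. Depth was estimated from gaps and doublings among low values.

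Values were analysed as log2(value + 1) with limma 3.58.1 in R 4.3.3 for genes with a mean above 5, with the 3 media as groups in 1 fit of all 9 samples and moderation with a mean-variance trend. A gene was called at a Benjamini-Hochberg adjusted p (over all tested genes, two-sided) under 0.05 and a log2 fold change of at least 1 in size. Fold changes on this scale understate those of low genes. The procedures were tested on simulated data. The 10 genes, the lists and the tests were chosen with earlier results of these data known. All 10 genes were named, and of each list up to 3 called genes per comparison and direction by adjusted p, or the 2 with the highest mean if none was called, and for marker lists the 2 with the highest mean as well. Coordinates, exon lengths and overlaps are from GENCODE M21 (GRCm38, the build of the authors, whose annotation release differed). Same-numbered samples deviated together from the group means in DM and NO (correlation across genes 0.16, 0.17 and 0.30) but not in GS and DM (-0.18, 0.02 and -0.23) or GS and NO (-0.05, 0.05 and -0.11), and the replicate number as a block was an alternative. A block within the DM and NO samples alone was added after seeing the data. The other alternatives changed the samples in the fit, the minimum mean, the pseudocount, the scaling, the variance model and the minimum fold change, left out the 1% of genes with the highest means, or left out each sample in turn.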

Additional observations from a re-analysis of the deposited data

How the results depend on the processing

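Of the alternative values for the 8 tested genes, 439 kept direction and side of the adjusted p threshold, 7 gained and 15 lost significance, and 12 changed sign. This tally leaves the 2-fold minimum aside: *Casz1* in NO vs. GS fell under it at 0.89, 0.94 and 0.97, and *Tagln* in that comparison gained the adjusted p at 0.97. In DM vs. GS the 1 gene called became 3 with only the 6 samples compared and 0 with a minimum log2 fold change of 2, and 1 to 3 with 1 sample left out (3, with *Cnn1* and *Myh6*, without NO replicate 2, and 2 without NO replicate 1). In NO vs. GS the 3 genes became 1 with a minimum mean of 50, quantile normalisation or a log2 minimum of 2, and 1 to 3 with 1 sample left out (1 without GS replicate 3 or NO replicate 2). In NO vs. DM the 1 gene became 0 with no minimum mean, a minimum mean of 50, quantile normalisation, precision weights, the 6 samples alone or a log2 minimum of 2, and 0 to 2 with 1 sample left out. It was lost without GS replicate 2, each DM replicate, and NO replicates 2 and 3, and *Tagln* joined it without NO replicate 1. A minimum mean of 50 tests fewer of the genes, and otherwise the cause was not tested.

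Of the list genes, the 6 called in DM vs. GS became 3 with quantile normalisation, 2 with a minimum log2 fold change of 2 and 2 to 8 with 1 sample left out. The 15 in NO vs. GS became 8 with a minimum mean of 50, 9 with a minimum log2 fold change of 2 and 13 to 20 with 1 sample left out. The 12 in NO vs. DM became 5 with a minimum mean of 50 or a log2 minimum of 2, 6 without a trend, 7 with precision weights, 6 with the 6 samples alone and 4 to 15 with 1 sample left out (4 without DM replicate 1 or 2, 6 without NO replicate 2 or 3). Quantile normalisation moved the share of higher genes among all calls from 86.04% to 67.46% in NO vs. GS and from 79.32% to 65.11% in NO vs. DM, and the median of all genes to -0.11 and -0.08. The share of all tested genes called under each alternative is not given. Changes in the counts for the lists and the 8 genes can therefore not be told apart from changes over all genes.

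With the replicate number as a block the counts for the 8 genes were 1, 3 and 1 and those for list genes 6, 16 and 13, and in the added block of DM and NO samples alone 1 and 12. The block changed no call for the 8 genes. Among list and marker genes *Myog* lost both calls with the block, and *Nppb* lost that in NO vs. DM in the block of DM and NO samples. With the block in all 9 samples *Cacna1c* (NO vs. GS), *Tbx2* (NO vs. DM) and *Ckm* (both of these comparisons) gained a call. In the block of DM and NO samples alone *Tbx2*, *Ckm* and *Pdgfra* gained one in NO vs. DM.

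Sign changed only for log2 fold changes that did not pass: with 1 sample left out *Acta1* ranged from -0.93 to 0.37 in DM vs. GS and from -1.03 to 0.26 in NO vs. DM, *Acta2* from -0.38 to 0.42 in NO vs. GS (0.08 with equal totals), *Myh6* from -0.10 to 0.71 in NO vs. DM, *Myh7* from -0.60 to 0.56 and *Tagln* from -0.19 to 0.02 in DM vs. GS. *Nkx2-5*, *Actc1*, *Acta2* and *Tnnt2* rest on few reads, which limits what these libraries can show for them.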
